A study of Mus musculus with 36 samples.

Results

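SAHA (vorinostat) was compared with vehicle in the prefrontal cortex (PFC) on 6 Illumina MouseWG-6 arrays of the 36 in the series, 3 from SAHA-treated and 3 from vehicle-treated mice. The arrays were chosen from the labels by region and treatment, and no measured value entered the choice. Male mice, C57BL/6J in the labels and C57BL/6 in the methods, received SAHA at 25 mg/kg or vehicle by intraperitoneal injection on 10 consecutive days and were killed 1 h after the last injection. Each array held RNA pooled from 2 mice, so that a group is 3 pools (mice 1 and 2, mice 3 and 4, mice 5 and 6) and the spread of single mice is not visible. The medial PFC was cut from frozen brain. The vehicle was a saline, PEG-400 and DMSO mixture, which was also the solvent of SAHA. The methods name 2 suppliers of mice, and the labels do not say which pool came from which.

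SAHA is a hydroxamate that chelates the zinc in the active site of histone deacetylases (HDACs) of classes I, II and IV. HDACs remove acetyl groups from histone tails within corepressor complexes such as Sin3, NuRD and CoREST, and they also deacetylate tubulin and other proteins. SAHA binds and leaves its targets quickly. The PFC is layered cortex made up of glutamatergic projection neurons, GABAergic interneurons, astrocytes, oligodendrocytes, microglia and vessels, with white matter at its deep border. In such tissue a lower signal from fewer cells of a type and from less RNA per cell cannot be told apart.

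Region markers were read first, to check the tissue labels. Tbr1, a transcription factor of deep cortical layers, lay between 9.13 and 9.41 on the 6 PFC arrays (log2 intensity), between 6.60 and 6.94 in the nucleus accumbens (NAc) and between 7.41 and 7.72 in the hippocampus (HIP). The dopamine D2 receptor gene Drd2, a marker of striatum, lay between 6.59 and 6.82 in PFC and between 8.55 and 9.40 in NAc. None of 13 striatal and none of 11 hippocampal markers was highest in PFC. The raw median of these arrays ran from 85.6 to 107.4 intensity units. The share of probes detected at p 0.01 ran from 35.6 to 38.2%.

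The PFC arrays lay on 2 BeadChips, slides that carry several arrays each, and these were not balanced. BeadChip 1 held vehicle pools 1 and 2 and SAHA pool 1, and BeadChip 2 held vehicle pool 3 and SAHA pools 2 and 3. A pair of pools stood apart from their own groups. Vehicle pool 3 correlated best with SAHA pool 1 (r = 0.994 across all tested probes), which lay on the other BeadChip, and less with vehicle pools 1 and 2 (r = 0.987 and 0.988). SAHA pools 2 and 3 correlated with vehicle pool 1 at r = 0.994 and 0.992. Values are therefore given for each pool, and the counts of called probes and of oligodendrocyte genes are given without these pools as well. What set these pools apart was not tested.

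Of 45281 probes, 21513 passed the detection filter in PFC. None passed an adjusted p of 0.05 (limma with Benjamini-Hochberg adjustment, smallest adjusted p = 0.9998). If no probe differed, 1076 probes would be expected on average at an unadjusted p under 0.05. That threshold was reached by 413 probes (1.92%), 219 higher (1.02%) and 194 lower (0.902%) under SAHA. With a change of at least 1.2-fold as well, 52 probes remained (0.242%), 37 higher (0.172%) and 15 lower (0.0697%), and these are called below. They carry 48 distinct array symbols, and 48 of the 52 were detected at p 0.01 on all 6 arrays. The 3 SAHA pools did not overlap the 3 vehicle pools for 1900 probes (8.83%), lying above them for 961 (4.47%) and below for 939 (4.36%), and 18 higher and 8 lower called probes were among them. Across all tested probes the median log2 difference was 0.00 and the 5th to 95th percentile ran from -0.13 to 0.14.

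The calls depended on the pools. With the BeadChip as a block 14 of the 52 calls were kept. Of the 37 higher calls 36 were also higher within both BeadChips, and 15 of the 15 lower calls were lower within both. The exception was Mapre2, which encodes a microtubule end-binding protein, with -0.044 on BeadChip 1 and 0.51 on BeadChip 2. Without vehicle pool 3 the number of called probes was 295, and without SAHA pool 1 it was 239. With both left out, an alternative added after the data were seen, it was 466 (342 higher and 124 lower). The adjusted count stayed at 0 in all of these fits.

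**Figure D1:**
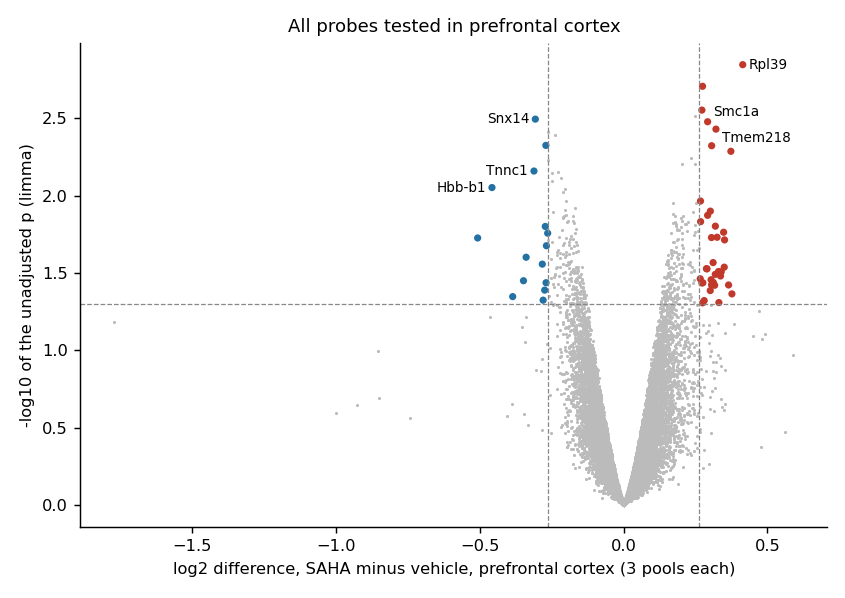
Each point is 1 of the 21513 tested probes, with the log2 difference of the SAHA and vehicle means in PFC on the x axis and the -log10 of the unadjusted limma p on the y axis. Dashed lines mark an unadjusted p of 0.05 and 1.2-fold, red and blue points are the 37 higher and 15 lower called probes, and the grey points far to the left below the p line include the growth hormone and prolactin probes.

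Among the 52 called probes, those of Rpl39, Tmem218 and Snx14 met the same call rule under all 19 alternative settings that gave a test, which include the BeadChip block, another normalization and each pool left out. Rpl39, a protein of the large ribosomal subunit, had the largest difference among the higher calls (probe ILMN_2711551). Its log2 intensity was 10.62, 10.41 and 10.77 in vehicle pools 1, 2 and 3 and 10.88, 11.05 and 11.11 in the SAHA pools. The groups did not overlap, and the difference was 0.41 ± 0.10 (SE, n = 3 pools each, unadjusted p = 0.00142, limma), a factor of 1.33. It was 0.37 on BeadChip 1 and 0.31 on BeadChip 2.

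Tmem218, a small membrane protein of the primary cilium, read 7.68, 7.72 and 7.86 in vehicle and 7.96, 8.11 and 8.16 under SAHA, a difference of 0.32 ± 0.09 (unadjusted p = 0.00371). A second, dimmer Tmem218 probe differed by 0.04 ± 0.10. Snx14, a sorting nexin of lipid handling at the endoplasmic reticulum, was lower, with 9.61, 9.60 and 9.39 in vehicle and 9.35, 9.14 and 9.19 under SAHA. Its difference was -0.31 ± 0.08 (unadjusted p = 0.00319), with vehicle pool 3 closest to the SAHA pools. The 2 dimmer Snx14 probes differed by 0.10 and -0.05. Which transcript each probe reads is not given in the sources used here.

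The next higher probes by size with no overlap of pools included Enpp2, Pigp, Nefm, Smc1a and Atg3. Enpp2, the lysophospholipid enzyme autotaxin made by choroid plexus and oligodendrocytes, read 8.54, 8.72 and 8.95 in vehicle and 9.07, 9.0 and 9.13 under SAHA. The difference of 0.33 ± 0.13 (unadjusted p = 0.031) was 0.44 on BeadChip 1 and 0.12 on BeadChip 2, so vehicle pool 3 again lay nearest to SAHA. Pigp, an enzyme subunit of the first step of GPI-anchor synthesis, read 8.28, 8.22 and 8.45 in vehicle and 8.53, 8.64 and 8.69 under SAHA (0.31 ± 0.09, unadjusted p = 0.00475), and it kept the call with the BeadChip block in p (0.00313) but was under 1.2-fold there (0.25). A second Pigp probe differed by -0.016 (unadjusted p = 0.863). Nefm, the medium neurofilament chain of large axons, read 8.54, 8.56 and 8.35 in vehicle and 8.87, 8.69 and 8.81 under SAHA, a difference of 0.31 ± 0.11 (unadjusted p = 0.0187).

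Smc1a, a ring subunit of the cohesin complex, read 7.70, 7.58 and 7.70 in vehicle and 7.85, 8.03 and 7.98 under SAHA (0.29 ± 0.08, unadjusted p = 0.00332). The other 3 Smc1a probes differed by -0.12 to -0.02. Atg3, a conjugating enzyme of autophagy, differed by 0.28 ± 0.12 with unadjusted p = 0.0477, close to the threshold, and a second probe, not detected at p 0.01 on any of the 6 arrays, by 0.0061. The array symbols LOC383308, A430107N12Rik and 4930463P07Rik were higher by 0.35, 0.29 and 0.28 with no overlap. The last 2 names matched as synonyms of Atxn7 and Otud7b.

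Dusp1, a phosphatase of MAP kinases that is induced within the hour by neuronal activity and by glucocorticoids, read 8.90, 8.71 and 8.95 in vehicle and 9.16, 9.30 and 9.02 under SAHA. The groups did not overlap and the difference was 0.31 ± 0.13 (limma, unadjusted p = 0.0377), while with a BeadChip block the unadjusted p was 0.0693. Dusp1 was the only called gene among 25 tested immediate early genes and among 24 tested glucocorticoid-induced genes.

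**Figure D2:**
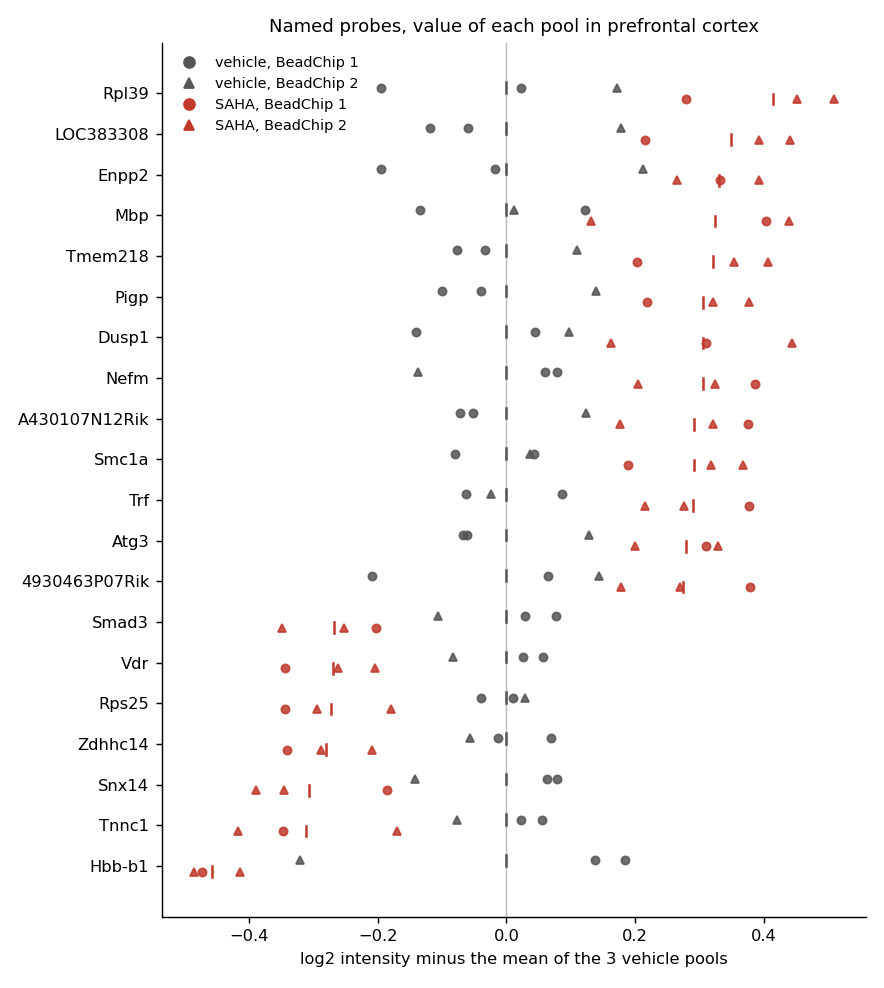
Log2 intensity of each PFC pool minus the mean of the 3 vehicle pools for the probes named by size, called and with no overlap between groups. Grey symbols are vehicle and red symbols SAHA, circles lie on BeadChip 1 and triangles on BeadChip 2, and short bars are group means. The vehicle pool on BeadChip 2 lies nearest to the SAHA pools for Rpl39, Enpp2, Snx14 and Hbb-b1.

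Further higher calls had pools that overlapped or nearly touched. Gap43, a growth-cone protein of axons, read 7.52, 7.56 and 7.92 in vehicle and 7.86, 8.19 and 8.0 under SAHA (0.35 ± 0.13). Ywhab, a 14-3-3 adaptor, read 9.50, 9.53 and 10.0 in vehicle and 9.97, 10.02 and 10.08 under SAHA (0.35 ± 0.12). Ctgf, a matrix protein made in cortex by layer 6b neurons, read 7.88, 7.73 and 8.27 in vehicle and 8.22, 8.27 and 8.33 under SAHA (0.31 ± 0.12). In each of these genes vehicle pool 3 reached the SAHA values, and within BeadChip 2 the differences were 0.17, 0.05 and 0.03. Hspd1, the mitochondrial chaperonin, Mgst3, a microsomal glutathione transferase, and Rgs17, a regulator of G-protein signaling, showed the same arrangement, with 0.13, 0.06 and 0.16 on BeadChip 2 and 0.25, 0.39 and 0.27 on BeadChip 1.

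Nap1l5, an imprinted nucleosome assembly protein, and Cpeb4, a regulator of translation at synapses, went the other way between slides. Nap1l5 differed by 0.08 on BeadChip 1 and 0.40 on BeadChip 2, and Cpeb4 by 0.06 and 0.35. Ndufb9, a subunit of respiratory complex I, was dim, with 6.57, 6.68 and 6.68 in vehicle and 6.88, 6.98 and 6.89 under SAHA. Its difference of 0.27 ± 0.07 (unadjusted p = 0.00279) did not overlap and was 0.25 on both BeadChips, but none of the 3 vehicle arrays detected it at p of at most 0.01 while all 3 SAHA arrays did. The array also called mtDNA_COXII (0.36) and mt-Atp6 (0.29), named for mitochondrial transcripts, with vehicle pool 3 within the range of the SAHA pools in each. The symbol mt-Atp6 matched a nuclear gene copy in the reference, so its source was not determined.

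Of the lower calls outside the hemoglobins, Tnnc1 was the largest with no overlap. Tnnc1, troponin C of slow muscle and heart, read 9.03, 9.07 and 8.93 in vehicle and 8.67, 8.59 and 8.84 under SAHA. The difference was -0.31 ± 0.09 (unadjusted p = 0.00692), with -0.39 on BeadChip 1 and -0.22 on BeadChip 2. It was the only call among 14 tested troponin and sarcomere genes, whose median difference was -0.04. Rps25, a protein of the small ribosomal subunit, read 10.61, 10.56 and 10.63 in vehicle and 10.26, 10.42 and 10.31 under SAHA (-0.27 ± 0.09, unadjusted p = 0.0158), and its vehicle pools lay close together.

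Zdhhc14, a palmitoyl transferase, read 9.06, 9.14 and 9.01 in vehicle and 8.73, 8.78 and 8.86 under SAHA (-0.28 ± 0.12, unadjusted p = 0.0474). Smad3, which carries TGF-beta and activin signals to the nucleus, read 8.07, 8.12 and 7.93 in vehicle and 7.84, 7.79 and 7.69 under SAHA (-0.27 ± 0.10). The pools of neither gene overlapped, but second probes of Zdhhc14 and Smad3 differed by -0.05 and -0.02. Vdr, the vitamin D receptor, also did not overlap at -0.27 ± 0.08, but the probe was dim and was detected at p 0.01 in 2 vehicle pools and 0 SAHA pools. A second Vdr probe went the other way, by 0.08 with no overlap, and was not detected at p 0.01 in any pool of either group.

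Pgam1, a glycolytic mutase, differed by -0.34 ± 0.13 with overlapping pools, by -0.63 on BeadChip 1 and by -0.04 on BeadChip 2. Ndufb3, another complex I subunit, was likewise lower on BeadChip 1 (-0.54) and near 0 on BeadChip 2 (-0.02). The sodium-sulfate cotransporter Slc13a4, a leptomeningeal gene, and Rae1, an mRNA export factor, differed by -0.27 and -0.26.

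The group with the most called lower probes was the hemoglobins. Of 11 tested probes that the array names Hbb-b1 (beta globin), 9 were lower under SAHA and 4 were called, with differences between -0.51 and -0.35, against a share of lower calls of 0.0697% among all probes. The 11 probes carry the same symbol and were read in the same pools. They are repeat readings and not independent members, so their count is not an excess over that share. The called probe with no overlap (ILMN_1229203) read 12.93, 12.89 and 12.43 in vehicle and 12.28, 12.34 and 12.26 under SAHA (-0.46 ± 0.14, unadjusted p = 0.00886). Hba-a1 (alpha globin) read 12.66, 12.72 and 11.89 in vehicle and 11.89, 12.01 and 11.98 under SAHA (-0.46 ± 0.22, unadjusted p = 0.0608) and was not called. Vehicle pools 1 and 2 were high and vehicle pool 3 lay at the level of the SAHA pools.

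Within BeadChip 1 this Hbb-b1 probe and Hba-a1 differed by -0.63 and -0.80, and within BeadChip 2 by -0.13 and 0.11. The other 3 called Hbb-b1 probes differed by -0.72 to -0.51 on BeadChip 1 and by -0.048 to -0.0031 on BeadChip 2. Without vehicle pool 3 Hba-a1 differed by -0.73 with unadjusted p = 0.00165 (limma). With any other vehicle or SAHA pool left out instead, Hba-a1 differed by -0.49 to -0.31 with unadjusted p from 0.0963 to 0.222. With the BeadChip as a block it differed by -0.39 (unadjusted p = 0.111). Alas2, the first enzyme of heme synthesis in red cell precursors, read 7.26, 7.27 and 6.78 in vehicle and 6.90, 6.95 and 7.06 under SAHA (-0.13, unadjusted p = 0.326), again with vehicle pool 3 low. Globin transcripts in brain tissue come mainly from blood left in vessels, with some expression in neurons, and how much of the difference was blood was not tested. The hemoglobin and red cell list held 1 call among 6 tested genes, with a median difference of -0.14. Lower globin values were not particular to PFC. In the same mice Hba-a1 differed by -0.72 ± 0.24 in NAc (limma, unadjusted p = 0.0146) and by -0.53 ± 0.18 in HIP (unadjusted p = 0.0158). The Hbb-b1 probe ILMN_1229203 differed by -0.42 in NAc and -0.19 in HIP. Of the list, 5 of 5 tested genes were lower in NAc and 5 of 6 in HIP.

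**Figure D3:**
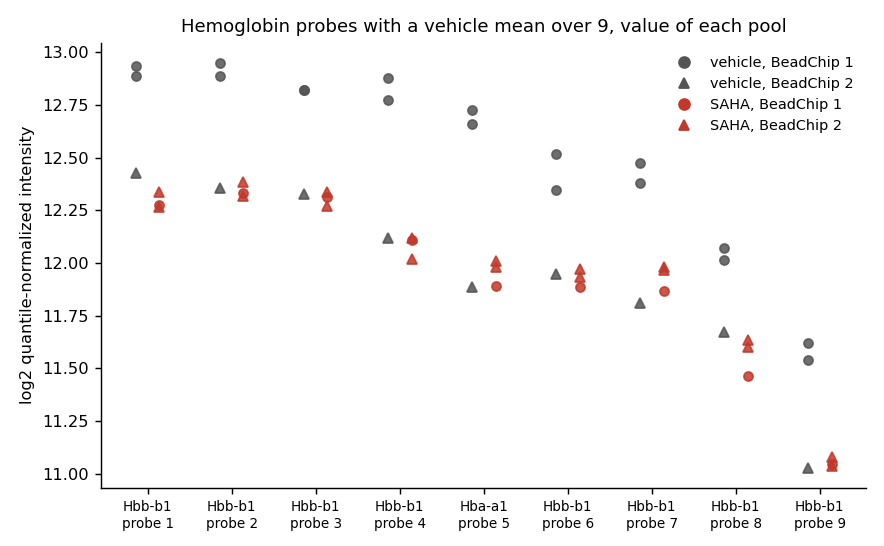
Log2 quantile-normalized intensity of each PFC pool for the 8 Hbb-b1 probes and the Hba-a1 probe whose vehicle mean is over 9, ordered by that mean (probe 5 is Hba-a1). Vehicle pools are grey and SAHA pools red, with circles for BeadChip 1 and triangles for BeadChip 2. In each probe the vehicle triangle, pool 3, lies at or near the SAHA pools and below the other vehicle pools.

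The stretches before the transcription starts of the globin genes are shown because these genes were lower together, those of Tnnc1 and Rpl39 because they led the other calls in each direction, and that of Dusp1 because it was the called immediate early gene. Each line gives 160 bases that end just before the start of RefSeq (GRCm38.p6), 5′ to 3′ on the transcript's strand, with capitals for matches on either strand to the TATA box forms TATAAA and, as a second form, TATAAG, to the CCAAT box, to the GC box GGGCGG and to the cAMP response element TGACGTCA. The reference carries the beta globin genes Hbb-bs and Hbb-bt, which are near-identical, so that a probe named Hbb-b1 may read both. The intervals are chr7:103827929-103828088 (minus strand, Hbb-bs), chr7:103813924-103814083 (minus, Hbb-bt), chr11:32283512-32283671 (plus, Hba-a1), chr14:31208152-31208311 (plus, Tnnc1), chrX:37085223-37085382 (minus, Rpl39) and chr17:26508473-26508632 (minus, Dusp1).
Hbb-bs: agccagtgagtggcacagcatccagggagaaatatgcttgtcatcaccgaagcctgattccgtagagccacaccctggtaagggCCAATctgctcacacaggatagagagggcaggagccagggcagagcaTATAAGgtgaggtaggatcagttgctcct
Hbb-bt: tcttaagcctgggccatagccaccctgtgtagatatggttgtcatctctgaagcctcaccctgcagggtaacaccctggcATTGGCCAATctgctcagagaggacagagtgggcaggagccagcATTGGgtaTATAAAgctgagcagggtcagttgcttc
Hba-a1: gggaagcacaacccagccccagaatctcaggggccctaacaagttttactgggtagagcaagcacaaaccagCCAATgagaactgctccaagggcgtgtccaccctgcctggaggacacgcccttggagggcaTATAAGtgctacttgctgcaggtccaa
Tnnc1: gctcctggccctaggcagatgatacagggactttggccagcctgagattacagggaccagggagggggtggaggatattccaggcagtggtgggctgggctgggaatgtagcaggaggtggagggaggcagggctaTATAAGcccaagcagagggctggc
Rpl39: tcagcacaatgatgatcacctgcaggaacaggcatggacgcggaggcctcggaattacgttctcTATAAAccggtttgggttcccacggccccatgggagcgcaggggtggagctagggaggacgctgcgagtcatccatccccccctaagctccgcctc
Dusp1: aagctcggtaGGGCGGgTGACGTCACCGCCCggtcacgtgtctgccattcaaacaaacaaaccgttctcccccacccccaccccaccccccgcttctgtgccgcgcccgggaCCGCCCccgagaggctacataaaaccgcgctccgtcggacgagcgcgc

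Hbb-bs held TATAAG from -29 to -24, Hbb-bt TATAAA from -28 to -23, Hba-a1 TATAAG from -27 to -22 and Tnnc1 TATAAG from -24 to -19, counted from the start. Dusp1 held TGACGTCA from -143 to -136. In the 250 bases before the start, on both strands, TATAAG was found in 7.69% of the 27025 genes of the promoter table, TATAAA in 14.3%, CCAAT in 37.5%, GGGCGG in 35.4% and TGACGTCA in 1.77%. Of the called genes, 16 higher and 9 lower ones had an entry. GGGCGG was found in 11 of the 16 and 5 of the 9, CCAAT in 7 and 2, TATAAA in 2 and 0, TATAAG in 0 and 1 and TGACGTCA in 1 and 0. Hbb-b1 had no entry under that symbol and is not in these counts. The shares over 27025 genes include genes not tested in PFC, whereas the called genes had passed the detection filter. Shares among the tested genes were not counted, so the called genes cannot be set against them.

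The list with the most members called higher was that of oligodendrocytes, the cells that wrap axons in myelin. Of 20 listed genes 17 were tested, 16 of these were higher under SAHA, and the median difference was 0.19, beside 0.00 over all probes, of which 50.4% were higher. Mbp, Mal, Ugt8a and Trf reached an unadjusted p under 0.05 (1.02% of all probes did so on the higher side), and Mbp, Mal and Trf were called (0.172%). The list was chosen with earlier results of these data known, and its direction is not independent evidence.

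Mbp, the basic protein that compacts myelin, read 12.32, 12.06 and 12.21 in vehicle and 12.60, 12.63 and 12.33 under SAHA with its brightest probe. The difference was 0.32 ± 0.12 (unadjusted p = 0.0186), and the lowest SAHA pool lay just above the highest vehicle pool. The other 4 Mbp probes differed by -0.15 to 0.16, so the gene's probes differed in sign. Trf, the iron carrier transferrin, read 9.60, 9.45 and 9.49 in vehicle and 9.89, 9.79 and 9.72 under SAHA (0.29 ± 0.12, unadjusted p = 0.0297), with no overlap and with 0.37 and 0.27 on the 2 BeadChips.

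Mal, a proteolipid of myelin rafts, read 8.79, 8.28 and 8.68 in vehicle and 9.14, 8.95 and 8.64 under SAHA (0.33 ± 0.15, unadjusted p = 0.0491), with overlap through SAHA pool 3. A second called Mal probe differed by 0.34 ± 0.14, all of it on BeadChip 1 (0.62, against 0.00 on BeadChip 2). Ugt8a, the enzyme that makes the myelin lipid galactosylceramide, read 8.0, 7.85 and 7.95 in vehicle and 8.21, 8.13 and 8.14 under SAHA (0.23 ± 0.09, unadjusted p = 0.0267) with no overlap.

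Members that did not pass included Olig1, a lineage transcription factor (0.33 ± 0.16, with no overlap), and Mobp, a basic protein of myelin (0.29 ± 0.15). Olig1 read 8.94, 8.98 and 9.32 in vehicle and 9.33, 9.49 and 9.39 under SAHA, with vehicle pool 3 close to the SAHA pools. Gpr37 was the only tested member that was lower (-0.02). SAHA pool 1 carried the highest mean over the list (9.24) and vehicle pool 2 the lowest (8.80), while SAHA pool 3 (8.96) lay between vehicle pools 1 (8.94) and 3 (8.99).

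Within BeadChip 1 the list's median difference was 0.38 and within BeadChip 2 it was 0.12. The count of members at an unadjusted p under 0.05 was 4 without vehicle pool 3, 0 without SAHA pool 1, 2 without both, 0 without vehicle pool 2 and 2 when the slide was a block. The median stayed between 0.17 and 0.30 over the fits that left out 1 pool of vehicle or SAHA. Of 9 tested markers of oligodendrocyte precursors 7 were higher, with a median of 0.06 and 0 at an unadjusted p under 0.05. The share of white matter in each dissected piece was not measured.

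**Figure D4:**
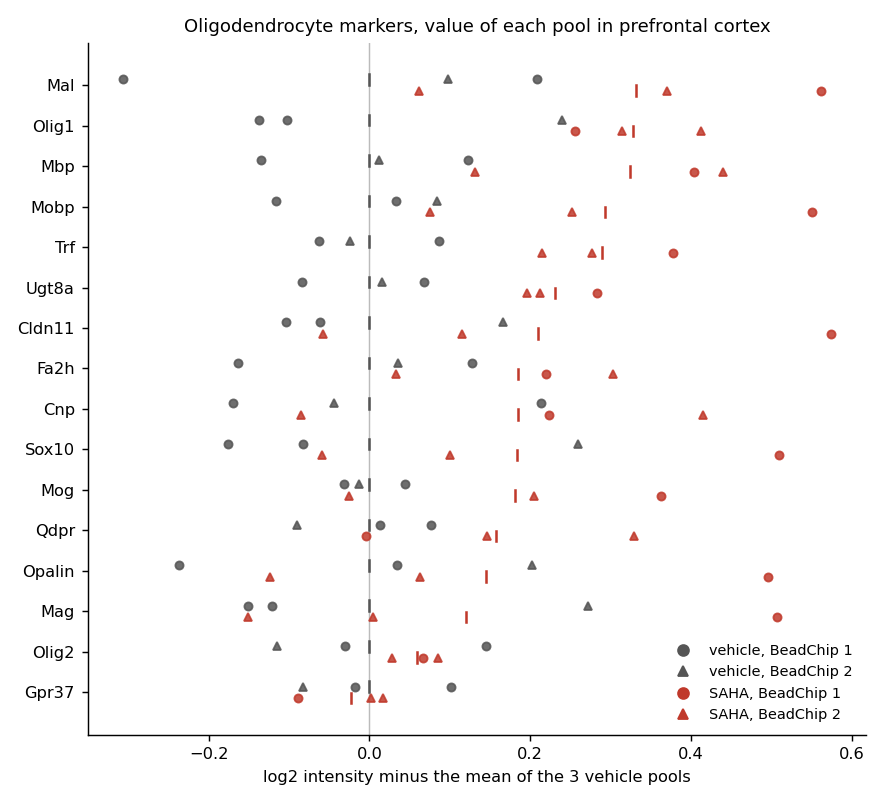
Log2 intensity of each PFC pool minus the mean of the 3 vehicle pools for 16 tested oligodendrocyte genes, ordered by difference. Grey is vehicle, red is SAHA, circles lie on BeadChip 1 and triangles on BeadChip 2, and short bars are group means. In most genes a SAHA triangle (pool 2 or 3) lies within or below the range of the vehicle points.

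The same mice and the same pools were measured in NAc and HIP, and the myelin genes did not differ alike. The BeadChips were unbalanced there as in PFC. In each region vehicle pools 1 and 2 and SAHA pool 1 shared a slide, and vehicle pool 3 and SAHA pools 2 and 3 another. In HIP 13 of 16 tested oligodendrocyte genes were lower under SAHA, 7 at an unadjusted p under 0.05 (6.47% of all HIP probes were lower at that threshold), with a median of -0.20. In NAc 8 were higher and 8 lower with 0 at that threshold (1.55% of all NAc probes in both directions), and the median was 0.00. The difference between the SAHA effects in PFC and HIP reached an unadjusted p under 0.05 for 7 of the 16 genes, all higher in PFC, beside 2.11% of all 18610 probes tested in the 3 regions. These were Mbp, Mog, Mobp, Mal, Fa2h, Trf and Qdpr.

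For Mal the effect in PFC exceeded that in HIP by 0.87 ± 0.23 (unadjusted p = 0.00119), for Mbp by 0.61 ± 0.19 (unadjusted p = 0.0046) and for Trf by 0.73 ± 0.27 (unadjusted p = 0.0139). These values are from the brightest probe of each gene. Another Mbp probe (ILMN_3011353) went the other way, by -0.36 ± 0.15 (limma, unadjusted p = 0.0232). The remaining Mbp probes differed by 0.24 to 0.43 with unadjusted p of 0.0808 or more. For the second called Mal probe (ILMN_1248947) the excess over HIP was 0.47 ± 0.52 (limma, unadjusted p = 0.374). That probe differed by -0.13 within HIP, with overlapping pools. In HIP the brightest Mal probe read 9.59, 9.89 and 9.89 in vehicle and 9.40, 9.16 and 9.19 under SAHA. The brightest Mbp probe read 13.28, 13.37 and 13.22 in vehicle and between 12.96 and 13.05 under SAHA there. The groups did not overlap in HIP for either of these probes. No probe passed an adjusted p of 0.05 in either comparison of regions (smallest adjusted p = 0.98 against HIP and 0.9998 against NAc). The HIP arrays of SAHA detected fewer probes (32.1 to 34.3%) than those of vehicle (38.0 to 39.7%), and the part of this in the region difference was not tested.

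**Figure D5:**
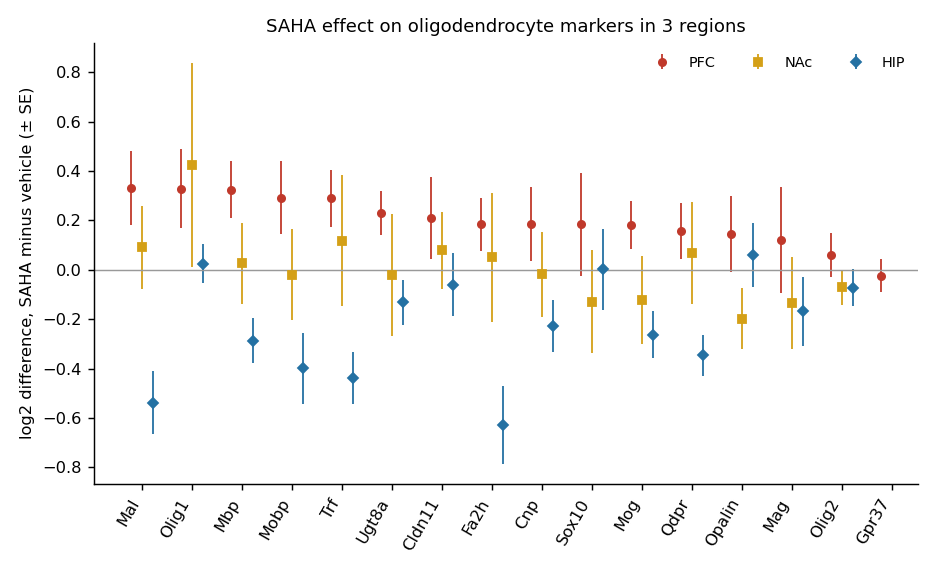
Log2 difference of the SAHA and vehicle means with its standard error from limma for 16 tested oligodendrocyte genes in PFC (circles), NAc (squares) and HIP (diamonds), 3 pools a group. PFC values lie above 0 for the genes drawn except Gpr37, which was tested in PFC alone, and HIP values lie below 0 for most.

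Of all called probes, the myelin genes included, 29 of the 37 higher ones had a difference under 0 in HIP and 3 of 37 in NAc. Of the lower ones 9 of 14 were also lower in HIP and 13 of 14 in NAc. Shares of all probes on each side of 0 in these regions were not counted. These signs were not taken within a BeadChip, and slide and treatment were unbalanced alike in the 3 regions, so an agreement in sign may follow the slide, which was not tested. The difference between PFC and HIP reached an unadjusted p under 0.05 for 10 of the 51 called probes tested in all regions, beside 3.92% of all probes, and that between PFC and NAc for 2, beside 1.56%. Because the called probes were chosen on the PFC values, a larger effect in PFC than elsewhere is partly fixed by that choice.

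The tested transcripts of the HDAC family, some of whose members SAHA inhibits, and of their partners showed no call. These are RNA levels and do not measure inhibition of the enzymes. Of the class I HDAC genes, Hdac2 read 8.24, 8.31 and 8.99 in vehicle and 8.66, 8.71 and 8.76 under SAHA (0.20, unadjusted p = 0.458), Hdac3 differed by 0.00 and Hdac8 by 0.07. Hdac1 was not analysed here. The 7 class II and IV genes differed by -0.17 (Hdac11) to 0.14 (Hdac4), with a median of 0.01. Hdac4 and Hdac5 were low in vehicle pool 3 and differed by 0.52 and 0.45 within BeadChip 2 and by -0.21 and -0.22 within BeadChip 1, so that their sign turned with the slide.

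Among 22 tested corepressor genes 8 were higher and 14 lower with 0 called, among 18 acetyltransferase and bromodomain genes 5 and 13 with 0 called, and among 21 histone genes 15 and 6 with 0 called. The widest histone difference was that of the linker histone gene H1fx (0.34, unadjusted p = 0.127). Of 16 tested genes that HDAC inhibitors often induce in cultured cells 8 were higher and 8 lower, with differences of -0.19 to 0.18 and 0 called. Cdkn1a, the cell-cycle inhibitor p21 and the standard such gene, read 8.29, 8.24 and 8.23 in vehicle and 8.03, 7.92 and 8.25 under SAHA (-0.19, unadjusted p = 0.392). Metallothionein Mt1 differed by 0.10 and Hexim1, an inhibitor of transcription elongation, by 0.10.

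Some genes that respond to neuronal activity had widely spread pools. Arc, a synaptic immediate early gene, read 9.54, 9.31 and 8.40 in vehicle and 9.17, 10.12 and 9.73 under SAHA, a difference of 0.59 ± 0.33 (unadjusted p = 0.107) that was -0.26 on BeadChip 1 and 1.53 on BeadChip 2. Junb read 9.02, 8.85 and 8.08 in vehicle and 8.34, 9.15 and 8.80 under SAHA (0.11). Nptx2, a secreted synaptic pentraxin, read 9.98, 10.07 and 8.79 in vehicle and 8.84, 9.78 and 9.92 under SAHA (-0.10). In these 3 genes vehicle pool 3 and SAHA pool 1 were the lowest of their groups. Fos differed by 0.12 and Egr1 by 0.20, neither with an unadjusted p under 0.05. Of 25 tested immediate early genes 18 were higher, with a median of 0.09 and 1 call. Over all probes 50.4% were higher and 0.172% were called higher. The median of this list was -0.0055 within BeadChip 1 and 0.075 within BeadChip 2.

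Of 24 tested glucocorticoid-induced genes 18 were higher, with a median of 0.03 and Dusp1 as the 1 call. The shares of all probes were again 50.4% higher and 0.172% called higher. Sgk1, a kinase induced by glucocorticoids, read 9.79, 9.60 and 9.69 in vehicle and 10.05, 9.68 and 9.57 under SAHA (0.07), and Tsc22d3 (0.14), Fkbp5 (0.18) and Per1 (0.22) had an unadjusted p over 0.2. The neurotrophin list held 0 calls among 13 tested genes. Bdnf, the activity-dependent neurotrophin, read 8.92, 8.90 and 8.93 in vehicle and 8.89, 8.84 and 8.79 under SAHA, which did not overlap but differed by -0.08 (unadjusted p = 0.345). The circadian list held 18 tested genes with 0 calls. Its Tef, an output factor of the clock, read 9.27, 9.36 and 9.30 in vehicle and 8.81, 9.17 and 9.23 under SAHA (-0.24 ± 0.10, unadjusted p = 0.0389), under 1.2-fold, and Per2 differed by -0.15 with no overlap. The 12 genes that the study names from these arrays differed by -0.15 to 0.16 with 0 at an unadjusted p under 0.05.

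Core cell machinery was even between groups apart from single members. Of 62 tested cytosolic ribosomal protein genes 39 were higher and 23 lower with a median of 0.02, and Rpl39 and Rps25 were called in opposite directions. Rpl26 (0.23 ± 0.09) and Rpl7a (0.21 ± 0.09) reached an unadjusted p under 0.05 but not 1.2-fold. Ribosomal protein genes have many near-identical processed copies, and a probe can read several of them. Of 65 oxidative phosphorylation genes 40 were higher and 25 lower with a median of 0.02, with Ndufb9 called higher and Ndufb3 called lower.

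Of 25 proteasome genes, Psmb6, a catalytic subunit, and Psmd12, a lid subunit, were higher by 0.19 ± 0.07 and 0.17 ± 0.06. Psmd12 read 9.27, 9.23 and 9.25 in vehicle and 9.43, 9.45 and 9.39 under SAHA, with 0.18 and 0.17 on the 2 BeadChips, so that the slides gave like values. The proteasome median was -0.01 with 0 calls. Heat shock and chaperone genes (21 tested) and tubulin genes with the enzymes of tubulin acetylation (14 tested) held 0 calls. Of 26 sorting nexin genes Snx14 was called, and Snx25 was higher by 0.25 ± 0.09 (unadjusted p = 0.0171), with 0.01 on BeadChip 1 and 0.40 on BeadChip 2, while the other 2 Snx25 probes differed by -0.04 and 0.04.

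The synaptic gene lists, which take the brightest probe of each gene, held 0 calls. Medians were 0.03 over 35 postsynaptic glutamate genes, 0.00 over 34 synaptic vesicle genes, 0.00 over 17 GABA receptor and synthesis genes, 0.02 over 18 monoamine receptor genes and 0.00 over 52 potassium channel genes. Rab3c, a vesicle GTPase, reached an unadjusted p under 0.05 with a small difference of 0.14 ± 0.06. Its probe was dim and was detected at p 0.01 on 0 vehicle arrays and 3 SAHA arrays. With the BeadChip as a block its unadjusted p was 0.0782 (limma).

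Markers of the other cell types held 0 calls. The median difference was -0.01 for 19 glutamatergic neuron markers, 0.01 for 17 interneuron markers, -0.01 for 16 astrocyte markers, -0.07 for 11 reactive astrocyte markers, -0.02 for 15 microglia markers and -0.01 for 20 endothelial and pericyte markers. Of the reactive astrocyte markers 2 were higher and 9 lower. Of 12 meningeal markers 10 were lower, and Bgn, a matrix proteoglycan, read 8.18, 8.04 and 7.96 in vehicle and 7.95, 7.87 and 7.64 under SAHA (-0.24 ± 0.10, unadjusted p = 0.0335). Ttr, the transthyretin gene that defines choroid plexus, ranged widely within groups, with 7.57, 7.41 and 9.25 in vehicle and 8.80, 8.0 and 9.11 under SAHA (0.56 ± 0.56). Vehicle pool 3 held the highest Ttr value of all 6 pools, while the other choroid plexus markers tested differed by -0.09 to 0.12.

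The pituitary hormone genes Gh and Prl were picked out after their values were seen. Gh, growth hormone, read 9.83, 7.41 and 7.95 in vehicle and 6.49, 6.90 and 6.49 under SAHA (-1.77 ± 0.86, unadjusted p = 0.0654), and Prl, prolactin, read 8.30, 6.74 and 7.11 in vehicle and 6.45, 6.58 and 6.57 under SAHA (-0.85 ± 0.47, unadjusted p = 0.102). In the SAHA group Gh was detected at p 0.01 on 1 of 3 arrays and Prl on 0, so these pools lay at or near background and the differences are not exact. Neither overlapped, neither was called, and vehicle pool 1 held the highest value of both. In NAc Gh differed by -0.96. Genes that differ between the sexes or between C57BL/6 substrains held 0 calls among 3 and 7 tested genes.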

How the data were processed

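The authors deposited the linear bead intensity of each probe, neither background-subtracted nor normalized, with its detection p-value. Labels and methods name different RNA extraction kits, and the methods name GeneSpring for processing. Quantile normalization covered the 27 vehicle, SAHA and Cpd-60 arrays, whose values were then set to a floor of 1 and log2 transformed in R 4.3.3. Probes detected at p 0.2 on every array of 1 or more PFC groups were tested with limma 3.58.1 (lmFit, eBayes) on the 9 PFC arrays, without covariates, and p-values were Benjamini-Hochberg adjusted. The region differences used all 27 arrays with the pool as a random block. The code was checked on simulated data. Samples were grouped by labels, and p-values measure the spread between pools. The number of arrays limits the precision.

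Probes are named by array symbols, of which 21929 of 30869 matched the reference (GRCm38.p6). The genes named are up to 14 called probes in each direction with no overlap, the largest first (18 higher and 8 lower exist), other probes of these genes, and list members. Further called probes were chosen after their values were seen. A list takes the brightest tested probe of each gene. The members and lists were chosen with earlier results of these data known. Values of some of these genes are not reported here, though the counts include them.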

Additional observations from a re-analysis of the deposited data

Results flagged for a closer look

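Of the probes named by size, 21 were tested in all regions, and the SAHA effect in PFC differed from that in HIP at an unadjusted p under 0.05 for 7 (3.92% of all probes did so) and from that in NAc for 1 (1.56%), none of them at an adjusted p of 0.05 (limma). Against HIP the PFC effect was higher by 0.61 for Mbp (unadjusted p = 0.0046), 0.49 for Pigp (0.00908), 0.38 for A430107N12Rik (0.0315) and 0.73 for Trf (0.0139). It was lower by a difference of -0.38 for Tnnc1 (0.0102), -0.34 for Snx14 (0.0227) and -0.56 for Rps25 (0.0122). The Tnnc1 probe was dim in HIP, with pools between 6.93 and 7.14, beside 8.59 to 9.07 in PFC. The part of this low signal in its difference was not tested. Rps25 was lower in PFC (-0.27) and higher in HIP (0.29). A second Mbp probe (ILMN_3011353) went against the named one, with -0.36 against HIP (0.0232). Against NAc the effect on 4930463P07Rik differed by 0.33 (0.0195). The probes were chosen on their PFC values, which by itself favours a difference.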

How the results depend on the processing

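The number of probes at an adjusted p under 0.05 was 0 in PFC and in both region differences under every setting tried. The PFC counts moved with the setting. At an unadjusted p under 0.05 and 1.2-fold the count of 52 (37 higher, 15 lower) became 585 (337 and 248) with neqc normalization, 29 (16 higher) with the BeadChip as a block and 10 (7 and 3) by the methods' test, a one-way analysis with Tukey's comparison, which gave 289 probes of any size at its own threshold and 0 after adjustment. At an unadjusted p alone the count of 413 became 585 with neqc normalization, where the 1.2-fold threshold thus removed no probe. The same count became 172 with a detection p of at most 0.01 and 1142 without a detection filter. With a single pool left out it ran from 303 to 840, and the 1.2-fold count from 34 to 295, with 15 to 215 higher and 17 to 83 lower. The counts at an unadjusted p rose by over 1.5 times without vehicle replicate 3 (840), SAHA replicate 1 (694) or Cpd-60 replicate 3 (668), and the 1.2-fold count was 295 and 239 without the former pair and 34 without vehicle replicate 2. With both vehicle replicate 3 and SAHA replicate 1 left out, a setting added after the data were seen, the counts were 929 and 466 (342 and 124). Same-numbered pools are not paired by the labels and deviated together at r = -0.33, 0.05 and -0.30, so their numbers do not pair them, and the replicate block gave 444 probes at an unadjusted p and 81 at 1.2-fold (65 higher).

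The PFC minus HIP count of 730 became 2057 without a detection filter and ran from 413 (without SAHA replicate 3) to 1491 (without SAHA replicate 1) with pools left out, with 468 without vehicle replicate 2, and the PFC minus NAc count of 290 became 168 at a detection p of 0.01, 1200 without a filter and 448 with the BeadChip as a block, and ran from 203 to 644, its highest values being 644, 570 and 535 without SAHA replicate 1, SAHA replicate 2 and vehicle replicate 3. The replicate block gave 662 and 271. No called probe changed sign in a fit, and within BeadChip 1 Mapre2 was at -0.044. Of the 52 calls the share kept was lowest without vehicle replicate 2 (10) and by the methods' test (10). The cause was not tested.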
